A study of Mus musculus with 5 samples.

Results

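The sites described here were the adenosines of the deposited pileups that lie in a DRACH motif (D = A, G or U, R = A or G, H = A, C or U) within the coding sequence of an internal exon shorter than 400 bases. An internal exon is neither the first nor the last of its transcript, and each protein-coding gene was represented by 1 principal transcript of GENCODE M21 on mm10. These rules gave 8708 sites in 2939 exons of 877 genes in the METTL3 inhibition dataset, out of 471848 positions. In the Mettl5 dataset they gave 4156 sites in 1332 exons of 351 genes, out of 195787 positions. Both datasets together held 9301 such sites out of 512355 positions, and 3563 of them were present in both. More than 25 valid calls in every library of the dataset, the coverage rule of the study, was met by 8431 and 3898 sites, and all levels below are over these.

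Mouse embryonic stem cells (mESCs) were profiled by nanopore direct RNA sequencing, in which native RNA molecules pass through a nanopore and each adenosine of a read is called as m6A, as another modification or as unmodified. The METTL3 inhibition dataset held 1 library of E14 cells given 30 μM STM2457, an inhibitor of the METTL3 enzyme, for 48 h and 1 library of the same cells given 0.025% v/v DMSO, its solvent. Those E14 cells carried the reporters 2C::3xtbGFP-PEST and Zscan4::mCherry-PEST, the transgene Dox::APOBEC1-YTH-HA-IRES-tdiRFP and a homozygous METTL3-FKBP12 F36V knock-in, neither of the latter induced, and the labels give their genotype as WT. The Mettl5 dataset held 1 library each of untreated WT cells, Mettl5-KO clone #1 and Mettl5-KO clone #2, and each knockout library is 1 clone. No condition except the knockout had a second library, so every test below compares libraries, and whether cultures of 1 condition would differ cannot be seen. Of 12 mESC markers, 11 had positions in the inhibition dataset and 9 in the Mettl5 dataset, while the 4 primitive endoderm markers had none in either. Among the other markers, Vim had 18 positions in the inhibition dataset and Otx2 105 in the Mettl5 dataset. Neither Mettl3 nor Mettl5 had a position in either dataset, so the genotypes could not be checked at those genes.

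N6-methyladenosine is placed on nascent mRNA by the METTL3 and METTL14 complex at DRACH motifs, and GGACU is the motif it favours. Exon junction complexes, which are left on the mRNA near splice junctions, are known to shield nearby sequence from the enzyme. In mammalian mRNAs m6A is known to be concentrated in long internal exons and in last exons around the stop codon and in the 3′ UTR, while short internal exons, which make up most of the coding sequence of a spliced gene, carry little.

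Of the 8431 DRACH sites of short internal coding exons, 51 reached the methylation threshold of 25% in DMSO, and 166 reached 10%. The sequences that follow are those of 11 of these exceptions, chosen because the results on the named genes rest on them. Each runs 5′ to 3′ on the strand of the transcript over 21 bases of the GENCODE M21 transcript, with the DRACH motif in capitals and the called adenosine as its middle base.
Mcl1 (chr3:95659858-95659878, plus strand): caggattgTGACTcttatttc
Mcl1 (chr3:95659841-95659861, plus strand): ggcgtaacAAACTggggcagg
Mcl1 (chr3:95659769-95659789, plus strand): cggaaactGGACAttaaaaac
Mkrn1 (chr6:39405771-39405791, minus strand): ggttcagaGGACTgggtgaat
Pdcd2l (chr7:34192961-34192981, minus strand): actagactGGACTgagaagct
Cstf1 (chr2:172377940-172377960, plus strand): agtggaaaAGACTctgtagcg
Sfpq (chr4:127023394-127023414, plus strand): tttccaacGAACTtttggaag
Sfpq (chr4:127022922-127022942, plus strand): aattcaaaAGACTgtttgcta
Sfr1 (chr19:47733690-47733710, plus strand): aaaaacaaAGACAgtgagcct
Ifrd2 (chr9:107590353-107590373, plus strand): ctacttccGGACTttctgctg
Ifrd2 (chr9:107590165-107590185, plus strand): ggttatgtGGACTgcctgact

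The methylation level of a site is the percent of its valid calls that were m6A. The mean level over the sites was 1.16% in DMSO (SD over sites 4.10, n = 8431) and 0.364% in STM2457 (SD 1.14). It was 0.985% in WT, 1.02% in Mettl5-KO clone #1 and 1.03% in clone #2 (SDs 3.14, 3.42 and 3.51, n = 3898), and the median was 0 in all 5 libraries. The share of sites at 25% or more was 0.605% in DMSO (exact binomial 95% interval 0.451% to 0.795%) and 0.0119% in STM2457, where 1 site was left. In WT it was 0.334%, or 13 sites (0.178% to 0.570%), with 13 sites in clone #1 and 14 in clone #2. These intervals cover counting error only, and sites of the same exon share reads. No m6A call was made at 5377 of the DMSO sites, 63.8% of all, whose median coverage of 67 calls allows a level of up to 4.48%. Median coverage over the sites was 79 calls in DMSO, 53 in STM2457, 57 in WT, 50 in clone #1 and 56 in clone #2.

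Other classes of DRACH site in the same libraries were far higher. In DMSO, 25.05% of 1082 sites in internal coding exons of 400 bases or more reached 25%, with a mean level of 18.9%. The coding part of last exons had 17.3% of 6548 sites at this level (mean 13.4%), and 3′ UTRs 18.03% of 19142 sites (mean 13.6%). Adenosines of the same short internal exons outside DRACH motifs had a mean level of 0.879% in DMSO, with 0.0560% of 87554 at 25% or more. After STM2457 these other adenosines had a mean of 0.818%, so the DRACH sites lay above them in DMSO and below them in STM2457. In WT the other adenosines were at 1.24% and the DRACH sites at 0.985%. No test between these classes was made, since sites of an exon share reads and the libraries have no replicates.

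**Figure D1:**
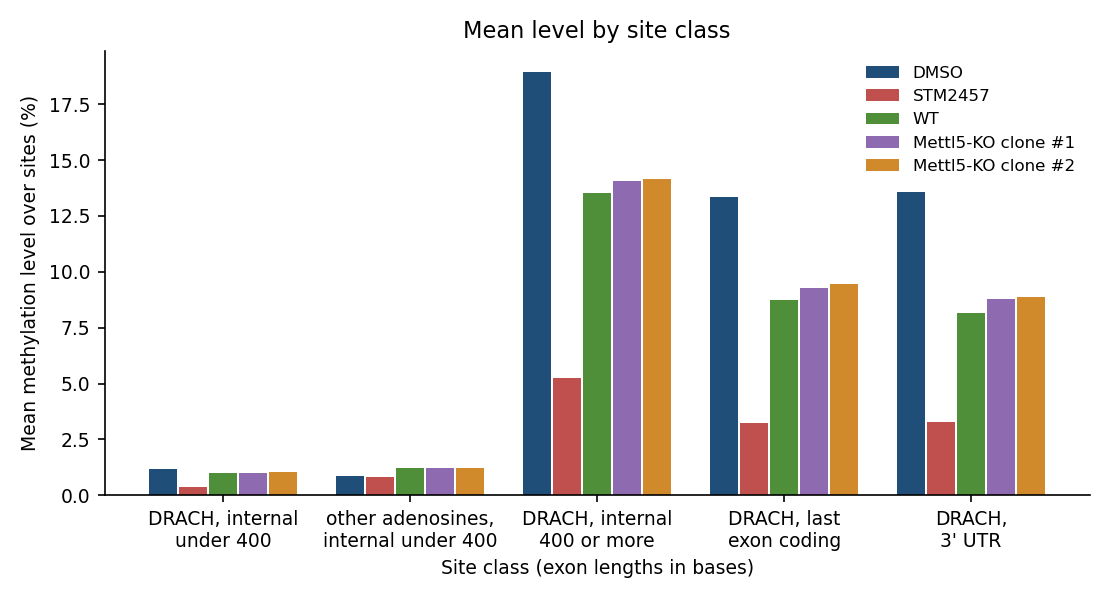
Mean methylation level in percent (vertical axis) over the sites of 5 classes, with 1 bar for each library. DRACH sites of internal coding exons under 400 bases stood at 0.364% to 1.16%, near the other adenosines of the same exons, while the mean of long internal exons reached 18.9% in DMSO.

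The difference was also seen within genes. Of 458 genes with at least 3 sites in short internal coding exons and 3 in the 3′ UTR, the mean DMSO level was lower in the short exons in 434. The count was 222 of 265 genes against the coding part of the last exon and 33 of 33 against long internal exons. In WT these counts were 139 of 150, 81 of 93 and 12 of 12. The examples that follow were taken from the genes with the highest mean in the other region, a choice that favours a large contrast. Ldb1, a LIM domain-binding cofactor of transcription, had a mean of 0.278% over 6 short-exon sites and of 89.0% over 4 sites of its 3′ UTR. Hspa5, the chaperone BiP of the endoplasmic reticulum, had 2.33% over 29 short-exon sites against 51.4% over 6 in its 3′ UTR in DMSO, and 1.77% against 55.7% in WT. Cand1, a regulator of cullin ubiquitin ligases, had 0.185% over 10 sites of short internal exons and 33.0% over 26 sites of long internal exons. The gap in DMSO was smaller in Cog8, at 6.57% against 33.9% in long internal exons. It was also smaller in Mkrn1, at 12.8% against 33.7% in the coding part of the last exon.

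The difference was present motif by motif. All 18 DRACH sequences had a lower mean in short than in long internal exons in DMSO, and 17 of 18 did in WT. GGACT had a mean of 4.94% over 494 short-exon sites and 55.6% over 87 long-exon sites in DMSO. Long internal exons reweighted to the motif shares of the short ones had a mean of 18.05%, and last-exon coding sequence one of 13.04%, against 1.16%. Among the 51 methylated sites, 21 were GGACT, or 41.2%, against 5.86% of all sites of short internal coding exons. Motifs that end in ACT made up 72.5% of the methylated sites and 27.3% of all, and motifs that begin with GGAC 62.7% and 23.6%. In WT, 11 of the 13 methylated sites ended in ACT and 3 were GGACT.

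Within short internal exons the methylated share rose with exon length. In DMSO it was 0.0729% in exons under 100 bases (1 of 1372 sites), 0.170% from 100 to under 150 bases (5 of 2941) and 0.217% from 150 to under 200 bases (5 of 2301). It was 1.30% from 200 to under 300 bases (19 of 1464, interval 0.783% to 2.02%) and 5.95% from 300 to under 400 bases (21 of 353, interval 3.72% to 8.95%). The mean level went from 0.633% in the shortest class to 5.01% in the longest, while the median coverage stayed between 76 and 82 calls. In WT the shares were 0 of 457, 0 of 1282, 1 of 1134, 9 of 810 (1.11%) and 3 of 215 (1.395%) in the same order, and the last 2 classes did not differ beyond their intervals. Clone #1 had the same counts as WT in each class, and clone #2 had 4 of 215 in the longest. Just inside the length limit, from 350 to under 400 bases, 19 sites or 9.55% were methylated (interval 5.85% to 14.5%), and just outside it, from 400 to under 450 bases, 15 of 138 or 10.9% (6.21% to 17.3%). From 300 to under 350 bases it was 2 of 154, so most of the methylated sites of the longest class lay near its upper end. Most of the methylated sites from 350 to under 400 bases lie in a last exon or one of 400 bases or more in another annotated transcript. These were on Dxo, Rnf41, Ltbp4, Irf3, Pdcd2l, Sfr1, Hsp90ab1 and Rrp8, while those on Cstf1, Jmjd6, Trip6, Utp14a and Pim3 do not. The rise without such sites was not tested. In WT the share from 350 to under 400 bases was 1.98% (interval 0.241% to 6.97%).

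The methylated share also rose with the distance to the nearest junction, counted from 1 at the outermost base of the exon. In DMSO it was 0.162% within 25 bases (5 of 3086) and 0.2496% at 26 to 50 bases (7 of 2805). It was 0.580% at 51 to 75 bases, 0.939% at 76 to 100 bases, 5.76% beyond 100 and up to 150 bases (17 of 295, interval 3.39% to 9.07%) and 13.2% beyond 150 bases (7 of 53, interval 5.48% to 25.3%). WT went from 0.0743% within 25 bases to 1.83% beyond 100 and up to 150 bases (3 of 164) and 6.90% beyond 150 bases (2 of 29). None of the 1217 DMSO sites within 10 bases of an exon end was methylated (upper bound of the exact 95% interval 0.303%). The shares near the upstream and the downstream junction had overlapping intervals. Within 25 bases of the upstream junction 0.123% of 1624 sites were methylated, and within 25 bases of the downstream junction 0.204% of 1469.

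**Figure D2:**
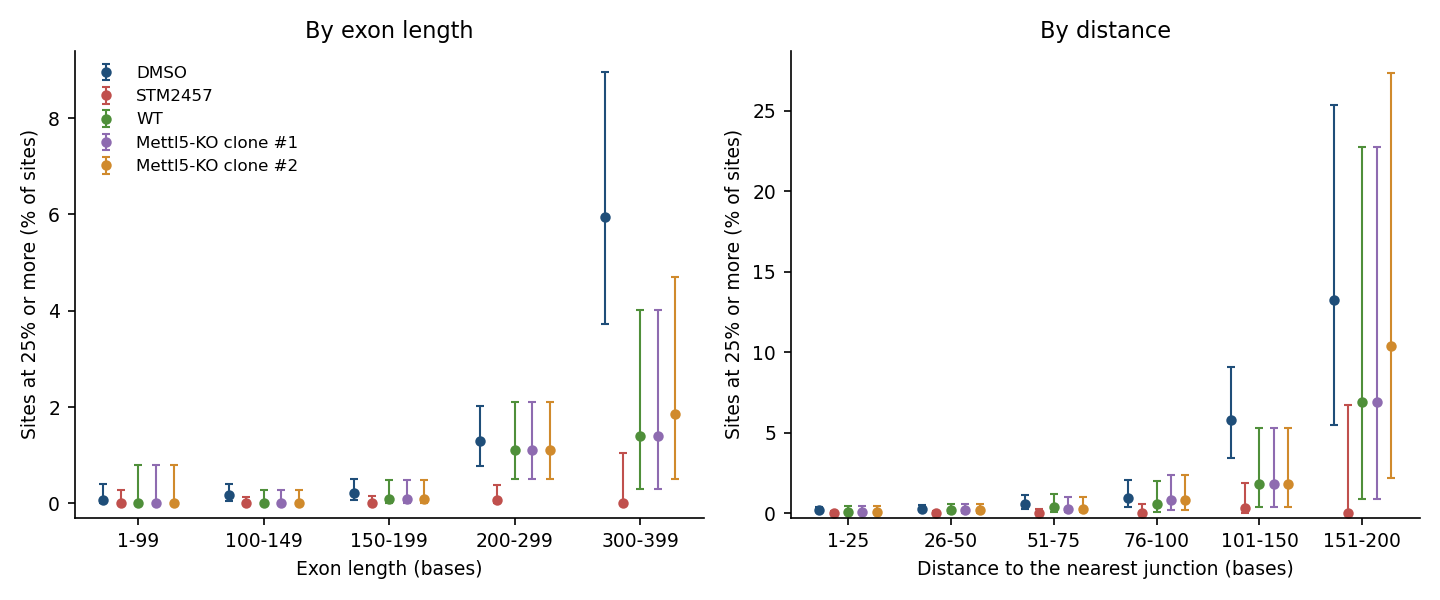
Share of DRACH sites of short internal coding exons at 25% or more (vertical axes, percent of sites) by exon length (left, bases) and by distance to the nearest junction (right, bases) in 5 libraries, with exact binomial 95% intervals as bars. The DMSO share reached 5.95% in exons of 300 to under 400 bases and 13.2% beyond 150 bases from both junctions, and the shortest and closest classes lay near 0 in every library.

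Exon length and junction distance are linked, since a site over 100 bases from both junctions needs an exon over 200 bases. In exons under 200 bases, 5 of 5120 sites within 50 bases of a junction and 6 of 1494 at 51 to 100 bases were methylated in DMSO. In exons of 200 to under 400 bases the counts at the same distances were 7 of 771 and 9 of 698, and 24 of 348 sites beyond 100 bases (6.90%, interval 4.47% to 10.1%). At matched distance the short internal exons lay below the long ones in DMSO. At 51 to 75 bases, 0.580% of sites in short internal exons, 13.2% of 76 in long internal exons and 5.66% of 795 in the coding part of last exons were methylated in DMSO. Beyond 100 and up to 150 bases the shares were 5.76%, 27.1% and 22.4%, and beyond 150 and up to 200 bases 13.2%, 24.5% and 26.4%. The intervals of the short and long internal exons overlapped only within 50 bases and beyond 150 bases. In WT the long internal exons had few sites, with 0 of 25 methylated within 25 bases and 0 of 26 at 26 to 50 bases, so no order could be read there. Beyond 100 and up to 150 bases the WT intervals overlapped (0.379% to 5.25% in short and 3.62% to 23.6% in long internal exons), and they were apart at 51 to 75 and 76 to 100 bases.

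**Figure D3:**
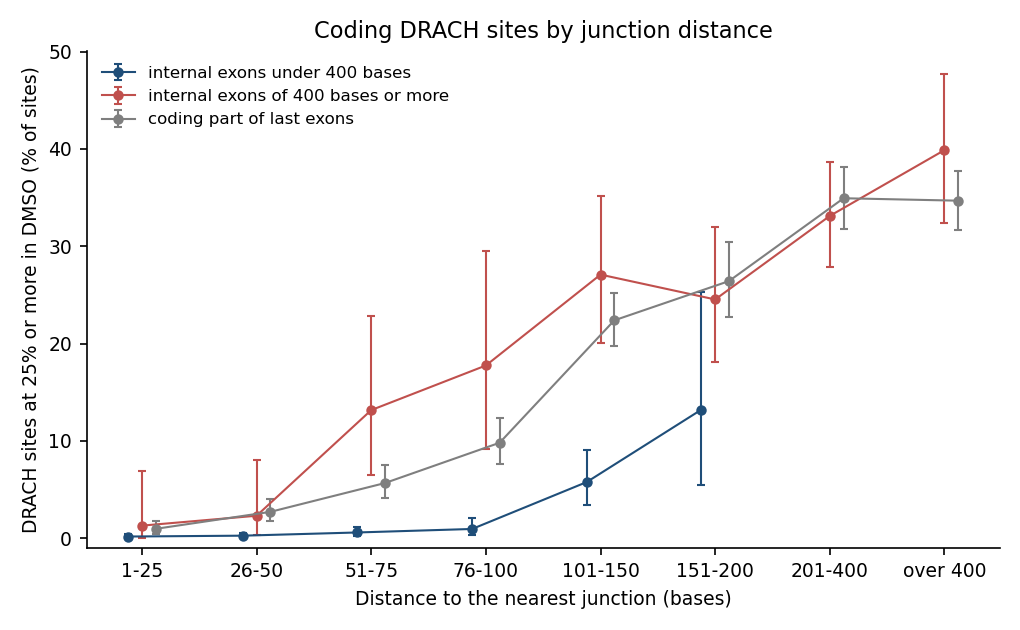
Share of coding DRACH sites at 25% or more in DMSO (vertical axis, percent of sites) by distance to the nearest junction (horizontal axis, bases) in short internal exons, long internal exons and last exons, for which the upstream junction was used, with exact binomial 95% intervals. The short internal exons rose from 0.162% to 13.2% and lay lowest in each of the 6 distance classes they reach.

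The 51 methylated sites of DMSO lay in 42 of 2837 exons and 38 of 852 genes, and 814 genes had none. Their exons had a median length of 286 bases against 148 for all sites, and their median distance to a junction was 89 against 35 bases. Of the 51, 40 lay in exons of 200 bases or more (78.4%, against 21.6% of all sites) and 24 over 100 bases from both junctions (47.1% against 4.13%). Exons under 200 bases within 50 bases of a junction held 60.7% of all sites and 5 of the 51. The other 487 sites of the 38 genes had a median of 0, and 431 of them were below 5%. In the same exon as a methylated site, 166 others were below 5% and 18 were at 10% or more. The 51 sites carried 2575 of the 17330 m6A calls made at these sites in DMSO, or 14.9%, and 2888 sites above 0 and under 10% carried 70.4%. Adenosines outside DRACH motifs in these exons had a mean of 0.879% in DMSO and 0.818% in STM2457. How many of the low-level calls are background of the caller was not tested.

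The level was lower in STM2457 than in DMSO at all 51 methylated sites. Their median went from 37.0% in DMSO to 3.92% in STM2457, a median relative decrease of 87.9% (range 61.9% to 100%). In the 5228 other methylated DRACH sites of principal transcripts the median decrease was 80.7%, but their median level in DMSO was higher, at 55.6%. The 10 sites of short internal exons at 50% or more in DMSO had a median decrease of 80.7% too. Whether the decrease differs between these classes at an equal level in DMSO was not tested. Each level was compared by a two-sided Fisher's exact test, and p-values were adjusted (Benjamini-Hochberg) over the 454540 positions tested. Of the 51, 36 were called lower at an adjusted p below 0.05. That is 70.6%, where 77.1% of all positions at 25% or more in DMSO were called. The 15 others were lower by an unadjusted p below 0.05. Because the 51 were chosen for a high level in DMSO, their decreases and p-values are not independent of that choice. The choice alone favours a fall. Over all 8431 sites, 121 on 68 genes were called lower, or 1.44%, against a background of 1.37% of tested positions. No site was called higher, where the background was 0.00264%, and 4 were higher at an unadjusted p below 0.05.

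**Figure D4:**
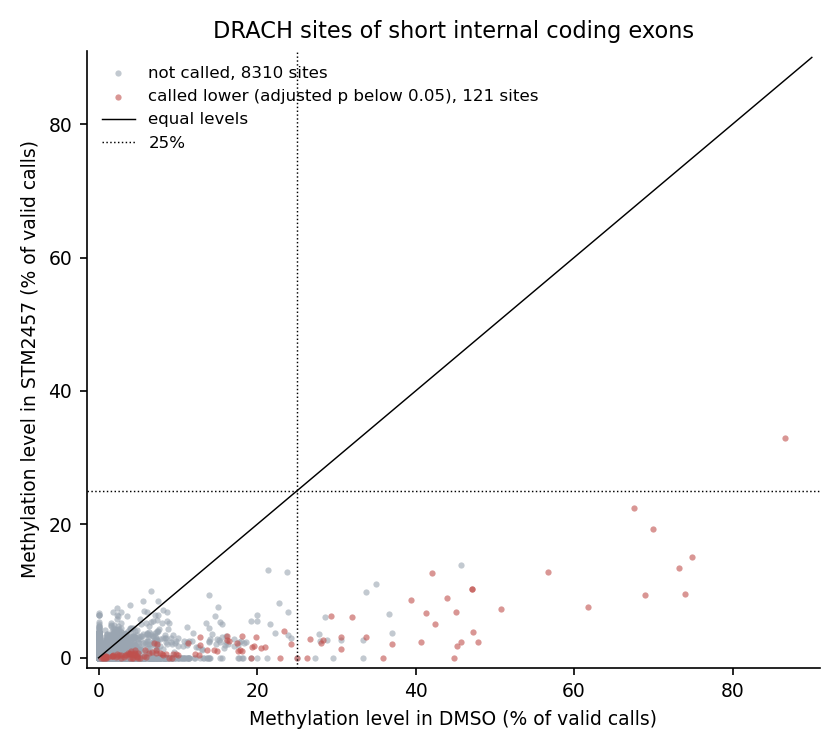
Methylation level of each of the 8431 DRACH sites in DMSO (horizontal axis, percent) and STM2457 (vertical axis, percent), with sites called lower by Fisher's exact test in red and dotted lines at 25%. Of the 51 sites right of the vertical dotted line, only 1, on Mcl1, stayed above 25% in STM2457.

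Mcl1, an anti-apoptotic member of the BCL2 family, held the highest site. At chr3:95659868, in exon 2 of 3 (248 bases, chr3:95659761-95660008) and 108 bases from the upstream junction, the level was 86.7% of 90 calls in DMSO, 33.0% of 94 in STM2457, 82.3% of 62 in WT, 79.3% of 82 in clone #1 and 88.8% of 107 in clone #2. The 4 libraries without inhibitor overlapped in their intervals, and STM2457 lay below all of them (adjusted p = 1.61e-11 against DMSO, Fisher's exact test). It was the sole site at 25% or more in all 5 libraries, and its relative decrease of 61.9% was the smallest of the 51. Its motif was TGACT, which had a mean of 1.23% over 479 short-exon sites. The same exon held 11 DRACH sites. At chr3:95659851 the level was 42.1% in DMSO and 12.7% in STM2457, with 33.3% in WT and 36.05% and 34.5% in the clones. The site at chr3:95659779, 19 bases from the upstream junction, had levels of 32.0%, 6.12%, 31.0%, 36.2% and 30.8% in the same order. The site at chr3:95659983, 26 bases from the downstream junction, had 23.4%, 4.08%, 25%, 15.9% and 20.4%. The other 7 sites of the exon were at 10.3% or less in DMSO.

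Mkrn1, which encodes an E3 ubiquitin ligase, had the best-covered site above 50%. At chr6:39405781, in exon 3 of 8 (230 bases) and 51 bases from the downstream junction, the level was 74.9% of 875 calls in DMSO (interval 71.8% to 77.7%) and 15.1% of 829 in STM2457 (12.7% to 17.7%). It was 69.3% of 150 in WT, 67.2% of 67 in clone #1 and 65.6% of 32 in clone #2, so again only STM2457 stood apart. The 5 other sites of that exon were between 0 and 1.26% in DMSO. In at least 1 other annotated transcript this site lies in a last exon, and its longest annotated exon has 422 bases.

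Pdcd2l and Cstf1 sites were tested in the inhibition dataset alone. Pdcd2l, a PDCD2-related gene, had 74.0% of 73 calls in DMSO and 9.52% of 63 in STM2457 at chr7:34192971 in exon 4 of 7 (371 bases). Another site 31 bases downstream on the transcript, chr7:34192940, went from 35.9% to 0. Cstf1, a subunit of the cleavage stimulation factor of mRNA 3′ end processing, had 73.2% of 56 calls and 13.5% of 52 at chr2:172377950 in exon 5 of 6 (391 bases). Both sites were called lower (adjusted p = 3.41e-12 and 4.90e-08, Fisher's exact test).

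Sfpq, an RNA-binding protein of paraspeckles, had methylated sites in adjacent exons. At chr4:127023404 in exon 3 of 10 (302 bases) the levels were 50.8% of 63 calls in DMSO, 7.27% in STM2457, 36.4% in WT, 25.4% in clone #1 and 38.9% in clone #2. At chr4:127022932 in exon 2 (189 bases) they were 39.4%, 8.62%, 35.1%, 41.3% and 54.2%. Its other 17 sites over 7 exons reached at most 11.4% in DMSO. Msh6, of DNA mismatch repair, had 47.1% in DMSO, 10.4% in STM2457, 41.0% in WT, 43.2% in clone #1 and 41.4% in clone #2 at chr17:87988320 in exon 5 of 10 (269 bases), 135 bases from both junctions. Sfr1, a recombination repair factor, had 45.2%, 1.72%, 48.3%, 55.1% and 44.8% at chr19:47733700 in exon 3 of 4 (393 bases). In all of these STM2457 was the lowest library and its interval did not overlap that of DMSO.

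Ifrd2 had methylated sites in a pair of exons well under 200 bases. The site at chr9:107590363 in exon 4 of 12 (125 bases) had 44.0% of 91 calls in DMSO and 8.97% of 78 in STM2457, and the site at chr9:107590175 in exon 3 (85 bases), 19 bases from the downstream junction, had 29.3% of 99 and 6.25% of 80 (adjusted p = 4.25e-05 and 0.00756, Fisher's exact test). The latter was the sole methylated site in an exon under 100 bases, while the former lies in a 365-base exon in another annotated transcript. Methylated sites of DMSO were also found in exons of 117 bases (Dctn1) and 121 bases (Llgl1). The Llgl1 site, on 27 calls in DMSO, lies in a 1266-base exon in another annotated transcript. Eef1d, the exchange factor of translation elongation factor 1, had 30.6% of 62 calls and 1.25% of 80 at chr15:75895893, 34 bases from the upstream junction of a 195-base exon. Together with the Mcl1 site at 19 bases these were the methylated sites closest to a junction among those with at least 50 calls in both libraries.

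Vps29, a retromer subunit, had 41.4% of 87 calls in DMSO and 6.67% of 60 in STM2457 at chr5:122362166 (exon of 236 bases). Llgl2, a cell polarity gene, had 30.6% of 72 and 3.17% of 63 at chr11:115853829 (265 bases). Gart, a trifunctional enzyme of purine synthesis, had 33.7% of 92 and 9.84% of 61 at chr16:91633955 in exon 11 of 22 (232 bases), which was not called (adjusted p = 0.0623, Fisher's exact test). Among the sites named so far, those of Gart, Vps29, Mkrn1, Eef1d, Llgl1, Pdcd2l and Sfr1 are covered by the last exon of at least 1 annotated transcript. Just at the threshold, Cdk9, the kinase of the transcription elongation factor P-TEFb, had 25% of 60 calls and 0 of 62, and Cfl1, the actin-severing protein cofilin, had 24.2% of 2155 and 2.08% of 1154. Both are also covered by an annotated last exon.

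**Figure D5:**
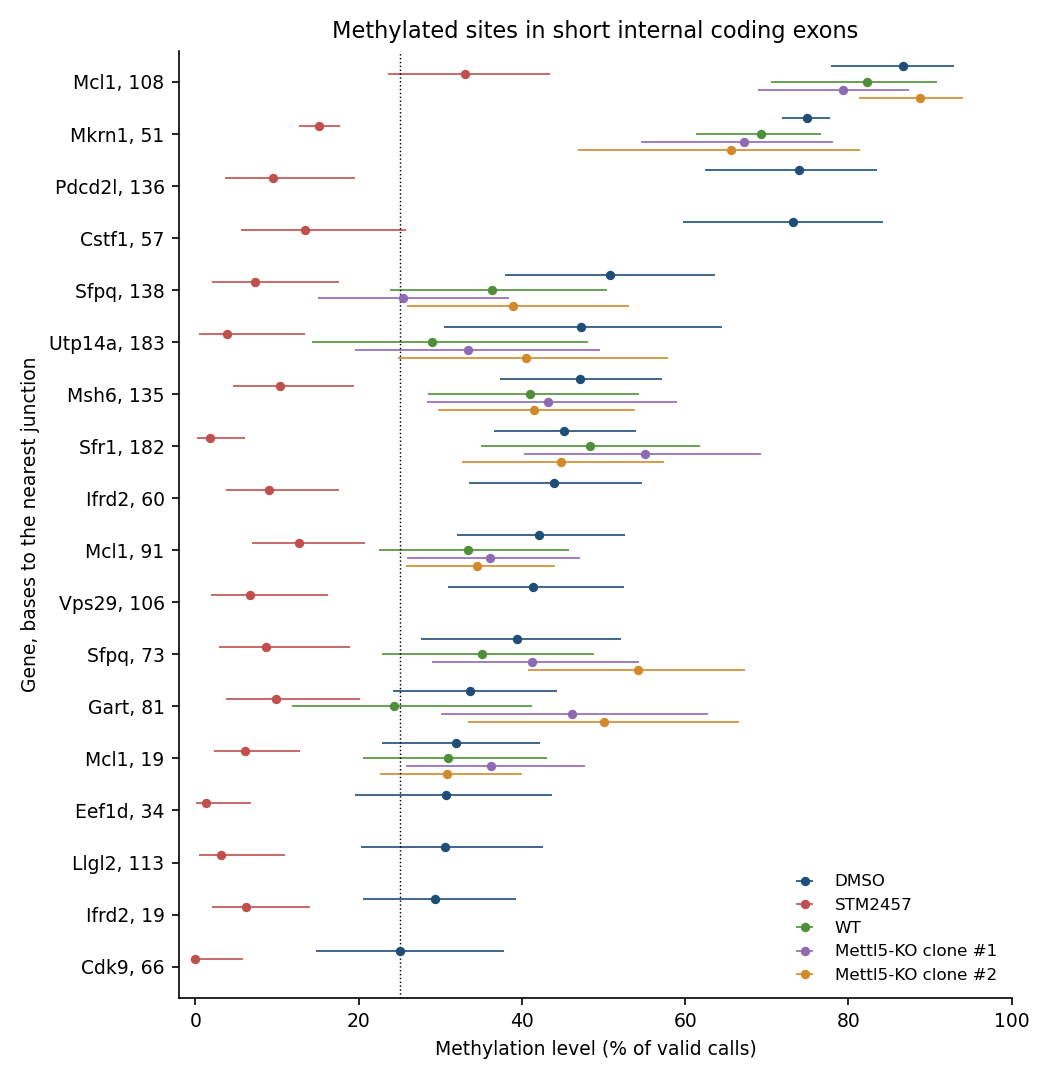
Methylation level in percent (horizontal axis) of 18 named sites of short internal coding exons at 25% or more in DMSO, labelled by gene and by the distance in bases to the nearest junction, in each library, with exact binomial 95% intervals. Sites with 2 points were not covered enough in the Mettl5 dataset, and the STM2457 point is leftmost at every site.

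Several sites are named here after their values were seen, since they show how the methylated sites group. Dxo, a decapping exonuclease, held 5 methylated sites, the most of any gene. In its exon 2 (362 bases) the sites at 22, 120, 150 and 248 bases from the upstream junction had 33.3%, 30.6%, 42.4% and 56.8% in DMSO and 2.70%, 2.63%, 5.13% and 12.8% in STM2457. The exon 2 sites had 33 to 37 calls in DMSO, and those at 22 and 120 bases were not called (adjusted p = 0.0623 and 0.0833, Fisher's exact test). In exon 3 (236 bases) chr17:34838019 had 67.6% and 22.5%, on 37 and 40 calls. In another annotated transcript the exon 2 sites lie in an exon of 507 bases and the exon 3 site in one of 459 bases. An annotated last exon also covers the exon 3 site. The 13 Dxo sites in exons 4 to 6 were at 10.8% or less in DMSO. Jmjd6, a JmjC-domain hydroxylase, had 69.0% of 29 calls and 9.38% of 32 at chr11:116842594 in exon 2 (389 bases). Besides Dxo and Mcl1, 7 genes had 2 methylated sites in DMSO: Ifrd2, Rrp8, Jmjd6, Sfpq, Pdcd2l, Rnf41 and Tmem248. The narrowest interval among the 51 was that of Hsp90ab1, the constitutive HSP90, with 28.4% of 2585 calls in DMSO and 2.62% of 1756 in STM2457 at chr17:45569693 in a 357-base exon, a site that an annotated last exon also covers.

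The 121 sites called lower were spread over low levels too. Of these, 59 were below 10% in DMSO, 26 at 10 to 25% and 36 at 25% or more, and the median coverage of the called sites was 352 calls in DMSO, against 79 for all. The share called rose with exon length, from 0.146% under 100 bases (2 of 1372) to 9.92% from 300 to under 400 bases (35 of 353), and with distance, from 0.454% within 25 bases to 17.0% beyond 150 bases (9 of 53). Eef1a1, the tRNA-delivering elongation factor, was the deepest gene with up to 7422 calls at a site. Its site at chr9:78479390, 113 bases from a junction, fell from 7.25% to 0.682% (adjusted p = 1.16e-99), and a site of exon 3 at chr9:78480275, 35 bases from a junction, fell from 2.55% to 0.363% (adjusted p = 5.46e-26, both by Fisher's exact test). Atp5b, the beta subunit of mitochondrial ATP synthase, had a site 2 bases from a junction that fell from 4.50% of 2066 calls to 0.350% of 1144. Of 284 sites with 500 calls or more in both libraries, 2 reached 25% in DMSO, those of Mkrn1 and Hsp90ab1, and the mean level was 1.36%.

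In the Mettl5 dataset no site was called lower or higher in either clone against WT by Fisher's exact test with adjustment over 185157 positions. The background was 0.00216% lower and 0% higher for clone #1, 0.00324% lower and 0.00378% higher for clone #2, and 0.00216% lower and 0% higher in both clones. At an unadjusted p below 0.05, 5 sites were lower and 9 higher in clone #1, 14 lower and 12 higher in clone #2, and 2 lower and 2 higher in both. The clones were compared with the same WT library, so their differences from it share its counting error.

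The sites with the smallest p in both clones are given as values. Gart at chr16:91633914, 40 bases from the downstream junction of exon 11, had 23.7% of 38 calls in WT, 51.2% of 43 in clone #1 and 52.5% of 40 in clone #2 (adjusted p = 1 in both, Fisher's exact test), and 23.8% in DMSO. The neighbouring Gart site at chr16:91633955 had 24.3%, 46.2% and 50%. Eef2, the translocating elongation factor, had 2.68% of 447 calls in WT, 0.630% of 635 in clone #1 and 0.490% of 817 in clone #2 at a site 2 bases from a junction. Nop56, a core protein of box C/D snoRNPs, had 0 of 94 calls in WT, 8.79% of 91 in clone #1 and 5.47% of 128 in clone #2. The intervals of WT and both clones overlapped at the Gart sites. At the Eef2 site that of WT (1.39% to 4.64%) overlapped clone #1 (0.172% to 1.60%) and lay above clone #2 (0.134% to 1.25%), and at Nop56 the WT interval reached 3.85% and overlapped clone #2 but not clone #1, whose lower bound was 3.87%.

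Of the 13 sites methylated in WT, 12 lay in exons of 200 bases or more. Beside those named above they were on Timm10b, an import chaperone of mitochondria (34.5% of 29 calls), Eprs, a bifunctional aminoacyl-tRNA synthetase (33.3% in WT, 53.8% and 48% in the clones), Utp14a, of ribosome biogenesis (29.0%), and Atp2a2, a calcium pump of the endoplasmic reticulum (25% of 28 calls in WT, 6.06% and 12.8% in the clones). The Timm10b and Eprs sites are also covered by an annotated last exon, and their longest annotated exons have 2610 and 2709 bases. Sites above 25 calls in all 5 libraries numbered 3385. Of these, 13 were methylated in DMSO, 11 in WT, 10 in both and 9 in the 4 libraries without inhibitor. Those 9 were on Mcl1 (3 sites), Sfpq (2 sites), Mkrn1, Sfr1, Msh6 and Utp14a. Across these 3385 sites, which are not independent and share their sequence, Pearson's r between the DMSO and WT levels was 0.881 and Spearman's rho 0.419. In most of them both levels were near 0.

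The annotation behind the sites affects the exceptions. Of the 51, 30 lay in a short internal coding exon in every protein-coding transcript that covers them, out of 7325 such sites (0.410%), and 21 belonged to another exon class in at least 1 transcript, out of 1106 (1.90%). An annotated last exon of another transcript covered 26 of the 51 and 2585 of all sites. Of 4915 sites that are neither in a last exon nor in an exon of 400 bases or more in any annotated transcript, 20 were methylated (0.407%). Deposited positions within 100 bases in the flanking introns were present at 159 sites, of which 5 were methylated, on Utp14a, Rnf41, Llgl1 and Timm10b. The part of other isoforms and of unspliced RNA in the levels was not tested. The site of Eef1akmt4, a lysine methyltransferase of elongation factor 1A (61.7% of 47 calls in DMSO, 7.69% of 39 in STM2457), also lies in an exon of the overlapping gene Gm49333. An annotated last exon of Eef1akmt4 covers this site too, and its longest annotated exon has 1244 bases. Penultimate exons had 17 of 1862 sites methylated and other internal exons 34 of 6569, and the shares at codon positions 1, 2 and 3 were 0.554%, 0.634% and 0.595%.

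Of the 9 gene groups with at least 20 sites, 7 held none at 25% or more in DMSO, where the share over all sites was 0.605%. Cytosolic ribosomal proteins had 106 sites on 20 genes, 0 of them methylated, with a median of 0.0332%, where the median of all sites was 0. None was methylated among 222 sites of splicing factors, 155 of the proteasome, 167 of DEAD and DEAH box helicases, 230 of aminoacyl-tRNA synthetases, 97 of the MCM helicase and 20 of zinc finger genes. In WT, 1 of 191 aminoacyl-tRNA synthetase sites was methylated, that on Eprs. Chaperones had 1 of 274 in DMSO, on Hsp90ab1. Genes named Eif or Eef had 2 of 309, on Eef1d and on Eef1akmt4, which is itself no translation factor. Where 1.44% of all sites were called lower after STM2457, the groups had 25 of 274 chaperone sites, 16 of 309 Eif and Eef sites, 5 of 167 helicase sites, 3 of 106 ribosomal protein sites, 2 of 155 proteasome sites, 1 of 222 splicing factor sites and 0 in the others. Most of the called chaperone sites lay on Hsp90ab1 alone, and several of the Eif and Eef ones on Eef1a1. Both are deeply covered, with 2797 calls in DMSO at chr17:45568336 of Hsp90ab1 and 7391 at chr9:78479390 of Eef1a1. Sites of a gene share reads, so these counts are not a trait shown across the genes of a group. The part of coverage in these counts was not tested. The exon junction complex list was represented by 14 sites of Acin1 alone, 0 of them methylated, and genes of m6A writers, readers and erasers by none. Mybbp1a, a nucleolar protein, had 65 sites in 17 exons with a highest level of 2.69% in DMSO, and Fasn, the fatty acid synthase, 55 sites in 18 exons with a highest level of 3.51%.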

How the data were processed

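The authors demultiplexed reads of 5 libraries with WarpDemuX, called bases and modifications with dorado, aligned to mm10 and tallied calls with modkit. The deposited counts are valid, m6A, unmodified, other-modification and failed calls at each position, not normalized, and the deposited percent is m6A over valid calls, without failed ones. Reads start at the poly(A) tail, so 3′ ends and abundant genes are covered best.

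Exons were those of 1 RefSeq-linked APPRIS principal transcript a gene (GENCODE M21; the longest coding sequence at ties), and motifs were read from spliced transcripts, whose base was A at 444592 of 445258 and 181062 of 181291 positions. Levels, exact binomial 95% intervals and two-sided Fisher's exact tests, adjusted over all positions with more than 25 valid calls in each library of a dataset, were computed with Python 3.11.15 and scipy 1.17.1. The limit at 0 calls is 3 calls over coverage. Valid calls numbered 71574467 (DMSO), 54051900 (STM2457), 22025887 (WT), 17897440 (clone #1) and 19532075 (clone #2). Tested on simulated data, STM2457 against DMSO over 454540 positions called 60 of 100 levels lowered to 0.25 of their value, 24 of 100 lowered to 0.5, and 0 of 454340 others. The lowered levels were all 25% or more in DMSO, and the others differed by counting error alone. In the data 6249 positions were called lower, which makes the adjustment less strict. These counts are therefore not the power in the data, and differences between cultures were not simulated.

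Sites named by rule were the 12 highest in DMSO with at least 50 calls in both libraries (1 a gene), those at 25% or more in all 5 libraries, the 5 with the smallest decrease, the 3 closest to a junction, the nearest on either side of 25%, and the 3 with the smallest p in both clones, since none was called. Within-gene examples were taken from the 8 genes with the highest mean in the other region, and the low-level called sites from those with the smallest p. The sites, rules and gene lists were chosen with earlier results of these data known.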

Additional observations from a re-analysis of the deposited data

How the results depend on the processing

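No site was called in both Mettl5-KO clones under the alternatives that kept both clones. In exons under 200 bases, and with every transcript in agreement on the exon class, this was fixed in advance. Both hold only a part of the sites, and the main test called no site in either clone. Leaving out 1 clone only repeats a comparison given above, so it adds nothing. Of 35 alternative values, 19 stayed close to the main value and 16 moved. The share methylated in DMSO moved from 0.605% to 0.166% in exons under 200 bases, 0.410% with every transcript in agreement on the exon class, 1.97% at a threshold of 10% and 0.119% at 50%. The share in WT moved from 0.334% to 0.0348%, 1.28% and 0.0513% for exons under 200 bases and thresholds of 10% and 50%. The mean level in DMSO moved from 1.16% to 1.07% with at least 50 calls, 0.784% in exons under 200 bases, 1.11% with failed calls in the denominator and 1.06% with every transcript in agreement. The number of sites called lower in STM2457 went from 121 to 51 with adjustment over positions at 25% or more in at least 1 library. Sites at low levels are not tested there. It went to 43 in exons under 200 bases, where there are fewer sites. It was 104 with both libraries thinned to equal coverage. The median relative decrease of 87.9% was 84.8% with at least 50 calls, 91.1% in exons under 200 bases and 80.7% at a threshold of 50%. Why these values moved was not tested beyond that.

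The planned reading of DRACH motifs from the genome was not run, since no mm10 sequence was used here. No paired analysis was possible because the groups share fewer than 2 replicate numbers. Depth limits single sites: 29 of the 51 methylated sites had fewer than 50 calls in DMSO or STM2457. Each condition except the knockout is 1 library, and the datasets differ in cell line and batch, and these cannot be told apart when DMSO is set beside WT.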
